A study of Mus musculus with 26 samples.

Results

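The chemokine ligands and receptors described here are the genes whose symbol in the platform annotation begins with Ccl, Cxcl, Cx3cl, Ccr or Cxcr followed by a number. The annotation gave 47 such genes among 18194 genes in all, namely 18 CC ligands, 13 CXC ligands, 1 CX3C ligand, 10 CC receptors and 5 CXC receptors. They were measured by 74 probe sets with a single gene symbol, and each gene was represented by the probe set with the highest mean over the 26 arrays. The receptor of the CX3C ligand, Cx3cr1, falls outside the naming pattern and is given for comparison only.

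The study set virus for BDNF (brain-derived neurotrophic factor), which supports neurons, against virus for the marker GFP (green fluorescent protein), both lentiviruses, in aged mice carrying an APP (amyloid precursor protein) transgene, a model of Alzheimer's disease. Virus was delivered to the entorhinal cortex, the cortical area whose axons enter the hippocampus, and RNA of the dissected entorhinal cortex and hippocampus was measured on Affymetrix arrays 4 weeks later. In each region there were 4 arrays of transgenic mice given BDNF virus, 4 of transgenic mice given GFP virus, 2 of non-transgenic mice given GFP virus and 3 of non-transgenic mice with a sham lesion. No group of transgenic sham mice and no group of non-transgenic mice given BDNF was part of the design. The sham mice are non-transgenic, so a comparison of all virus groups with sham also contains the genotype of 2 of the 3 virus groups. Not given in the sources used here are the transgene's line and promoter, the promoter of the virus, the exact age and sex of the mice, and which hippocampal and entorhinal arrays came from 1 mouse. The labels call the arrays of a group biological replicates without naming animals, so the p-values measure the spread between these arrays.

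Arrays are named here by region, group and the replicate number in their label. All values are log2 expression, on which a difference of 1 is a doubling. Array medians lay between 5.51 and 5.58. As a check of the dissected tissue, 11 of 11 measured markers of region differed between entorhinal cortex and hippocampus at a limma adjusted p under 0.05. Of these, 7 were higher and 4 lower in the entorhinal cortex, and 51.8% of all genes differed. The count takes no account of the region that each marker stands for. Neuronal marker means lay between 11.48 and 11.83 on every array. The mean of the choroid plexus markers was 7.91 on hippocampal sham array 1 and between 5.08 and 5.35 on the hippocampal virus arrays. Of the entorhinal arrays, 2 had low oligodendrocyte marker means, BDNF array 3 with 7.41 and non-transgenic GFP array 2 with 7.56, and the rest lay between 8.28 and 9.22. Xist, the RNA that silences one X chromosome in females, was between 10.38 and 11.01 on all 10 non-transgenic arrays and on 8 of the 16 transgenic arrays, and between 5.38 and 6.01 on the other 8. Comparisons of transgenic with non-transgenic arrays, and of all virus groups with sham, therefore also contain this difference.

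Chemokines are small secreted proteins that steer the movement of leukocytes along concentration gradients by binding receptors coupled to G proteins. In the healthy brain a few are made constitutively, such as Cxcl12 and the membrane-anchored Cx3cl1, which neurons present to the Cx3cr1 receptor of microglia. Others are made on demand by microglia, astrocytes, endothelial cells and invading leukocytes after infection or injury: Cxcl9, Cxcl10 and Cxcl11 are classical targets of interferon signalling and share the receptor Cxcr3 of activated T cells, Ccl5 attracts T cells and monocytes, and Cxcl13 attracts B cells through Cxcr5.

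Many of these genes lie side by side. In the order of genes on GRCm38.p6, Cxcl9, Cxcl10 and Cxcl11 fall within a stretch of 4 protein-coding genes on chromosome 5. Ccl2, Ccl7, Ccl11, Ccl12, Ccl8 and Ccl1 form an uninterrupted run of 6 on chromosome 11, and Ccl5, Ccl9, Ccl6, Ccl3 and Ccl4 form another run of 5 there. On chromosome 9, Ccr9, Cxcr6, Ccr1, Ccr1l1, Ccr3 and Ccr2 lie within 8 protein-coding genes.

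Sequence upstream of the transcription start was available from RefSeq for 34 of the 47 genes, as 38 windows of 250 bases on GRCm38.p6. Cxcl9 and Cxcl10 are shown because they are neighbours whose levels spanned a wide range across these arrays, and Cxcr4 because it is the receptor that passed the test against sham. Each window ends at the base before the start and is written 5′ to 3′ on the gene's strand, which is the minus strand for these 3 genes. Capitals mark matches to the interferon response core (GAAA, any 2 bases, then GAAA again) and to the kappa-B motif bound by NF-kappa-B, both searched on either strand. The windows lie at chr5:92348890-92349139 (Cxcl10), chr5:92328080-92328329 (Cxcl9) and chr1:128592300-128592549 (Cxcr4).
Cxcl10: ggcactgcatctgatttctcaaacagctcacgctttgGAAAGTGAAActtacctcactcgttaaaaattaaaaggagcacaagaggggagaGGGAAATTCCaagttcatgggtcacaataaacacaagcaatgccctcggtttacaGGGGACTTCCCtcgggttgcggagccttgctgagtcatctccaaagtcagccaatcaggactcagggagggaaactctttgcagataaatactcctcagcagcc
Cxcl9: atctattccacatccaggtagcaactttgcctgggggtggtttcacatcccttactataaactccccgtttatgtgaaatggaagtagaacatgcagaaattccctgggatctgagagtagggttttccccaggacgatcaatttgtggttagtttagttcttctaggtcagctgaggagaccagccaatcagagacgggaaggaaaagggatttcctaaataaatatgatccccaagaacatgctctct
Cxcr4: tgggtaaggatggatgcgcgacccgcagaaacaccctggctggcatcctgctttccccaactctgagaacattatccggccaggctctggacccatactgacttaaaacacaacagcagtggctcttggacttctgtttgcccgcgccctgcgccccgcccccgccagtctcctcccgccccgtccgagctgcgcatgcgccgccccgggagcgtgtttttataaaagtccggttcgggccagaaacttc
The Cxcl10 window held an interferon core from 213 to 204 bases before the start. It also held kappa-B matches from 159 to 150, from 104 to 95 and from 103 to 94 bases before it, the last 2 overlapping. Neither set of letters was found in the windows of Cxcl9 and Cxcr4. The interferon core was present in 2.98% of 32851 windows of that length over all genes, and in 2 of the 38 windows here (5.26%), those of Cxcl10 and Cxcl14. The kappa-B motif was present in 7.25% of all windows and in 10 of the 38 (26.3%), among them Cxcl1, Cxcl2, Cxcl3, Cxcl10 and Ccl20. A match describes the letters of the window and not the binding of a factor.

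The table was filtered on the mean over all arrays, at the 30th percentile of all probe sets (a log2 value of 4.33). Of the 47 genes, 32 passed and entered the tests, among 14941 genes tested in all. The 15 that did not pass were the ligands Ccl1, Ccl2, Ccl7, Ccl11, Cxcl2, Cxcl3 and Cxcl5 and the receptors Ccr1l1, Ccr3, Ccr4, Ccr7, Ccr8, Ccr9, Cxcr2 and Cxcr5, whose values lay between 2.44 and 4.73 on every array. Ccr1, with a mean of 4.60, was the last gene inside the filter and Ccl7, with 4.19, the first outside it. Cxcr6 passed with sham means of 4.20 in the entorhinal cortex and 4.23 in the hippocampus, both below the filter, and so passed only through its virus groups. Cxcr4 had a sham mean of 4.03 in the entorhinal cortex, also below the filter. Detection calls were not used here, so whether values this low stand above background was not tested. Ccl2, the main attractant of monocytes through Ccr2, was among the genes left out: its entorhinal values were 4.04, 3.70 and 3.80 in sham, 3.95 and 3.69 in non-transgenic GFP, 3.60, 3.64, 3.69 and 3.66 in transgenic GFP and 3.77, 3.51, 3.63 and 3.47 in transgenic BDNF. In the hippocampus Ccl2 read 3.68, 3.65 and 3.45 in sham, 4.12 and 3.89 in non-transgenic GFP, 3.46, 3.77, 3.94 and 3.66 in transgenic GFP and 3.83, 3.89, 3.56 and 3.56 in transgenic BDNF. These 26 values spanned 0.672 log2 units.

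Apart from Ccl28, the ligands with the widest range were even over the sham arrays and uneven over the virus arrays. Over the 10 entorhinal virus arrays, 16 of the 47 genes spanned at least 1 log2 unit and 9 at least 2, against 1 and 0 over the 3 sham arrays. Over the 10 hippocampal virus arrays the counts were 11 and 6, again against 1 and 0 in sham. More arrays give a wider range by themselves, so these counts describe the arrays and test nothing. For the 12 genes of the widest range, the median range was 3.21 over the entorhinal virus arrays and 0.452 over the entorhinal sham arrays, and 2.09 against 0.413 in the hippocampus.

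Cxcl9, an interferon-induced attractant of T cells, read 4.20, 4.64 and 4.43 in entorhinal sham, 8.43 and 4.95 in non-transgenic GFP, 5.29, 5.33, 6.96 and 9.27 in transgenic GFP and 7.53, 4.96, 4.98 and 6.69 in transgenic BDNF. Every entorhinal virus array lay above every sham array, and the virus arrays themselves ranged over more than 4 log2 units. Its hippocampal values were 4.38, 4.37 and 5.05 in sham, 8.04 and 6.77 in non-transgenic GFP, 7.53, 7.31, 6.97 and 4.53 in transgenic GFP and 5.90, 4.80, 4.76 and 5.31 in transgenic BDNF. There the non-transgenic GFP arrays and 3 of the 4 transgenic GFP arrays were high, while transgenic GFP array 4 lay within the sham range.

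Cxcl10, encoded beside Cxcl9 and acting on the same receptor, read 4.99, 5.50 and 5.31 in entorhinal sham, 7.99 and 5.21 in non-transgenic GFP, 6.07, 5.31, 6.43 and 8.66 in transgenic GFP and 6.92, 4.95, 5.34 and 6.33 in transgenic BDNF. In the hippocampus it read 5.11, 5.18 and 5.80 in sham, 7.62 and 5.91 in non-transgenic GFP, 6.93, 6.76, 6.66 and 5.24 in transgenic GFP and 6.14, 5.67, 5.11 and 5.67 in transgenic BDNF. Entorhinal transgenic GFP array 4 and hippocampal non-transgenic GFP array 1 were the highest of their region for Cxcl10 as for Cxcl9. Hippocampal non-transgenic GFP array 2, with 6.77 for Cxcl9, lay at 5.91 for Cxcl10, between the highest sham array and BDNF array 1. In both regions the virus and sham arrays of Cxcl10 overlapped.

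Cxcl11, the third ligand of that receptor, had entorhinal values of 5.58, 5.33 and 5.90 in sham, 8.56 and 5.77 in non-transgenic GFP, 6.30, 6.14, 5.84 and 9.13 in transgenic GFP and 6.55, 5.36, 5.77 and 6.37 in transgenic BDNF. Its hippocampal values were 5.63, 5.98 and 6.01 in sham, 8.32 and 6.91 in non-transgenic GFP, 7.72, 6.73, 6.95 and 5.69 in transgenic GFP and 5.94, 5.98, 5.58 and 5.98 in transgenic BDNF. Hippocampal BDNF arrays lay within the sham range or, for array 3, just below it, and the GFP arrays other than transgenic array 4 lay above them.

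Cxcl13, the B cell attractant, read 5.76, 5.47 and 5.93 in entorhinal sham, 8.68 and 5.83 in non-transgenic GFP, 6.42, 5.88, 6.28 and 9.18 in transgenic GFP and 7.53, 5.87, 5.59 and 6.92 in transgenic BDNF. Hippocampal Cxcl13 was 5.49, 5.51 and 5.89 in sham, 7.18 and 6.83 in non-transgenic GFP, 7.71, 7.11, 6.44 and 5.57 in transgenic GFP and 5.83, 5.80, 5.52 and 5.62 in transgenic BDNF. Hippocampal sham and BDNF arrays shared a narrow range, and 5 of the 6 GFP arrays lay above it.

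Ccl5, which attracts T cells and monocytes, was 5.20, 5.34 and 5.41 in entorhinal sham, 9.05 and 6.13 in non-transgenic GFP, 6.37, 5.33, 6.39 and 10.28 in transgenic GFP and 8.38, 5.44, 5.96 and 7.04 in transgenic BDNF. In the hippocampus Ccl5 was 5.14, 5.37 and 5.53 in sham, 9.10 and 6.80 in non-transgenic GFP, 7.85, 7.73, 6.92 and 5.52 in transgenic GFP and 6.97, 6.03, 5.51 and 5.89 in transgenic BDNF. Its non-transgenic GFP arrays lay above sham in both regions, and the transgenic GFP group reached down to the sham range.

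Ccl8 was 5.10, 5.66 and 5.50 in entorhinal sham, 7.45 and 5.51 in non-transgenic GFP, 6.88, 5.41, 6.49 and 10.14 in transgenic GFP and 7.62, 5.49, 5.46 and 6.70 in transgenic BDNF. Hippocampal values were 4.79, 4.99 and 5.39 in sham, 7.10 and 5.90 in non-transgenic GFP, 6.79, 6.67, 6.10 and 5.52 in transgenic GFP and 5.78, 5.42, 5.10 and 5.62 in transgenic BDNF. All 6 hippocampal GFP arrays lay above all 3 sham arrays, and BDNF array 3 lay among the latter. Its neighbour Ccl12, a monocyte attractant, had entorhinal values of 4.75, 4.92 and 4.77 in sham, 6.48 and 4.55 in non-transgenic GFP, 5.19, 4.93, 5.46 and 7.38 in transgenic GFP and 6.55, 4.67, 5.16 and 5.28 in transgenic BDNF. In the hippocampus Ccl12 was 4.72, 4.94 and 5.44 in sham, 6.37 and 5.38 in non-transgenic GFP, 6.50, 5.72, 5.34 and 4.50 in transgenic GFP and 5.16, 4.70, 4.61 and 4.998 in transgenic BDNF. Its virus and sham arrays overlapped in both regions.

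**Figure D1:**
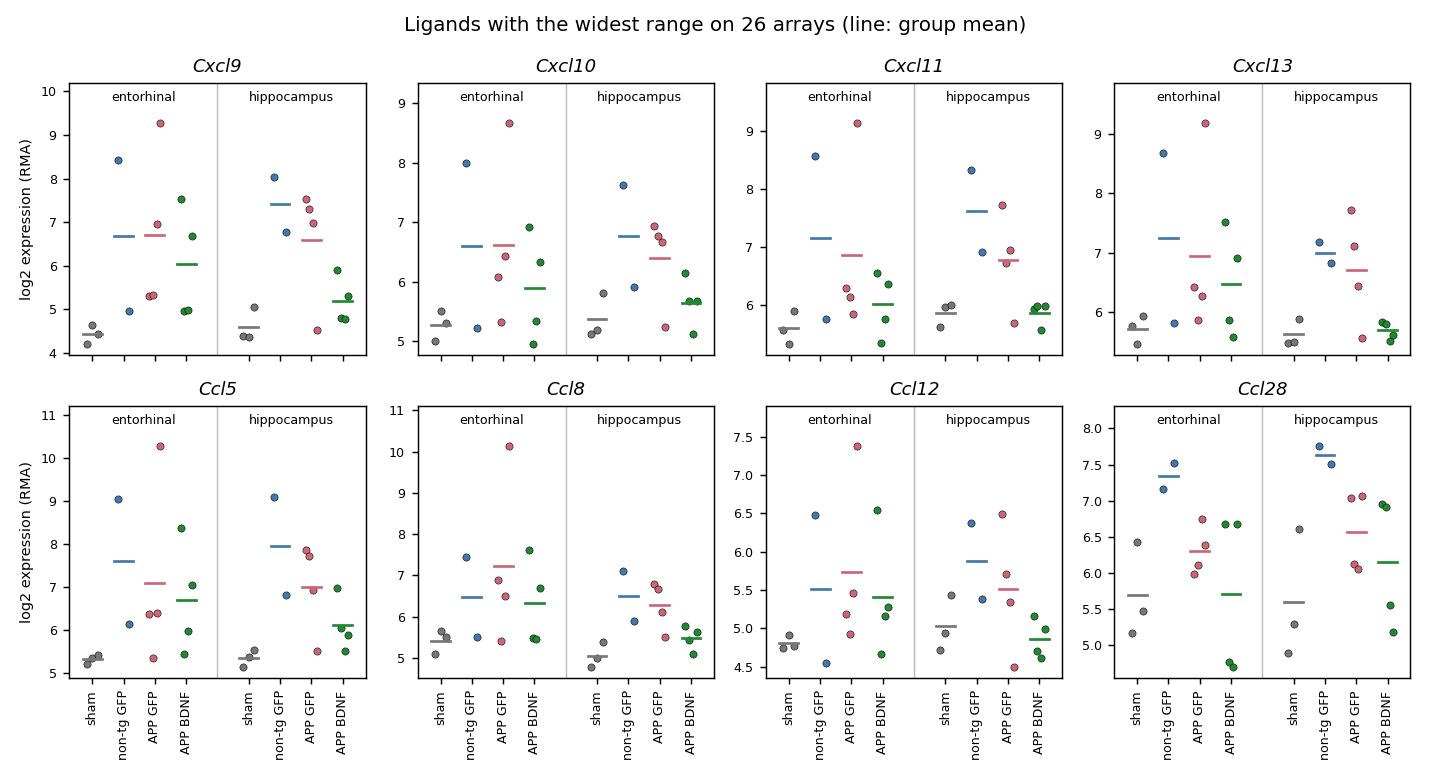
Log2 expression (y axis) of the ligands with the widest range on each of 26 arrays, by region and group (x axis); points are arrays and lines are group means. Sham arrays lie close together except for Ccl28, whereas single virus arrays stand far above the others, such as entorhinal transgenic GFP array 4 with 9.27 for Cxcl9.

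The same arrays were high for most of these genes. Among the 12 genes of the widest range, entorhinal transgenic GFP array 4 had the highest entorhinal value for 9, namely Ccl5, Ccl8, Ccl12, Cxcl9, Cxcl10, Cxcl11, Cxcl13, Cxcr4 and Cxcr6. Entorhinal non-transgenic GFP array 1 was among the 3 highest for all 12 and the highest for Cxcl16 and Cxcr3. BDNF array 1 was among the 3 highest for 8. In the hippocampus non-transgenic GFP array 1 had the highest value for 8 of the 12, and transgenic GFP arrays 2 and 1 were among the 3 highest for 9 and 7.

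The mean over 7 ligands (Ccl5, Ccl8, Ccl12, Cxcl9, Cxcl10, Cxcl11 and Cxcl13) gives this in one value per array. These 7 were chosen after their values were seen, and their mean was not tested. In the entorhinal cortex it was 5.22 ± 0.124 in sham (SD, n = 3), 6.76 ± 1.89 in non-transgenic GFP (n = 2), 6.74 ± 1.64 in transgenic GFP (n = 4) and 6.12 ± 0.949 in transgenic BDNF (n = 4). The spread within each entorhinal virus group was thus larger than the distances between the virus groups. In the hippocampus it was 5.27 ± 0.283 in sham (n = 3), 7.02 ± 0.932 in non-transgenic GFP (n = 2), 6.47 ± 0.891 in transgenic GFP (n = 4) and 5.55 ± 0.325 in transgenic BDNF (n = 4). The single arrays reached 9.15 on entorhinal transgenic GFP array 4 and 8.09 on array 1 of the entorhinal non-transgenic GFP group, and fell to 5.22 on hippocampal transgenic GFP array 4.

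Ccl28, a mucosal ligand of Ccr3 and Ccr10, had a different order of arrays. It read 5.17, 6.43 and 5.48 in entorhinal sham, 7.16 and 7.52 in non-transgenic GFP, 5.99, 6.11, 6.74 and 6.39 in transgenic GFP and 6.67, 4.77, 4.71 and 6.68 in transgenic BDNF. Hippocampal values were 4.89, 5.29 and 6.61 in sham, 7.76 and 7.51 in non-transgenic GFP, 7.04, 6.12, 6.05 and 7.06 in transgenic GFP and 6.95, 6.91, 5.57 and 5.18 in transgenic BDNF. In both regions its 2 non-transgenic GFP arrays were the highest of all, and entorhinal transgenic GFP array 4 was not raised above its group. The other 2 probe sets of Ccl28 differed between virus groups and sham by -0.01 and 0.15 in the entorhinal cortex and by -0.02 and 0.06 in the hippocampus, so its values rest on 1 probe set of 3.

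Cxcl16, a membrane-bound ligand of Cxcr6, read 6.97, 7.13 and 7.06 in entorhinal sham, 7.84 and 7.14 in non-transgenic GFP, 7.10, 7.20, 7.05 and 7.82 in transgenic GFP and 7.11, 6.90, 6.44 and 7.21 in transgenic BDNF. Its hippocampal values were 7.19, 7.16 and 7.47 in sham, 7.41 and 7.12 in non-transgenic GFP, 7.16, 7.21, 7.49 and 7.22 in transgenic GFP and 7.33, 7.21, 7.09 and 7.15 in transgenic BDNF. Entorhinal transgenic GFP array 4 and non-transgenic GFP array 1 were high, entorhinal BDNF array 3 was low, and the hippocampal groups overlapped. Its second probe set differed between virus groups and sham by 0.57 ± 0.40 (SE) in the entorhinal cortex and 0.61 ± 0.20 in the hippocampus.

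Cx3cl1 and Cxcl12 are the constitutive ligands. Cx3cl1, the neuronal ligand of microglial Cx3cr1, read 11.46, 11.39 and 11.35 in entorhinal sham, 11.25 and 11.48 in non-transgenic GFP, 11.18, 11.25, 11.34 and 11.35 in transgenic GFP and 11.31, 11.31, 11.36 and 11.37 in transgenic BDNF. In the hippocampus it read 11.47, 11.31 and 11.40 in sham, 11.31 and 11.30 in non-transgenic GFP, 11.06, 11.40, 11.58 and 11.45 in transgenic GFP and 11.34, 11.29, 11.38 and 11.31 in transgenic BDNF. These 26 values spanned 0.511 log2 units. Its receptor Cx3cr1, the microglial gene given for comparison, read 9.43, 9.58 and 9.61 in entorhinal sham, 9.73 and 9.43 in non-transgenic GFP, 9.28, 9.26, 9.59 and 9.60 in transgenic GFP and 9.60, 8.96, 9.41 and 9.56 in transgenic BDNF. Hippocampal Cx3cr1 was 9.48, 9.16 and 9.33 in sham, 9.69 and 9.43 in non-transgenic GFP, 9.18, 9.60, 9.13 and 8.997 in transgenic GFP and 9.40, 9.32, 9.32 and 9.04 in transgenic BDNF. Entorhinal BDNF array 2 was the lowest and entorhinal non-transgenic GFP array 1 the highest, and between hippocampal transgenic and non-transgenic GFP Cx3cr1 differed by -0.33 ± 0.16 (limma adjusted p 0.988).

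Cxcl12, which positions neuronal precursors and lymphocytes through Cxcr4, read 8.74, 8.90 and 8.69 in entorhinal sham, 8.75 and 8.56 in non-transgenic GFP, 8.63, 8.97, 8.52 and 8.72 in transgenic GFP and 8.59, 8.52, 8.14 and 8.92 in transgenic BDNF. Hippocampal Cxcl12 was 9.34, 9.26 and 9.26 in sham, 9.36 and 9.34 in non-transgenic GFP, 9.40, 9.40, 8.80 and 8.94 in transgenic GFP, and between 8.99 and 9.42 on the 4 transgenic BDNF arrays. Treatment groups overlapped within each region, and the hippocampus lay higher.

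Cxcr4, the receptor of Cxcl12 on neurons, glia and leukocytes, separated virus from sham arrays in both regions. Its entorhinal values were 4.16, 3.84 and 4.09 in sham, 5.50 and 4.25 in non-transgenic GFP, 4.32, 4.82, 4.86 and 5.75 in transgenic GFP and 4.93, 4.88, 4.73 and 4.46 in transgenic BDNF. In the hippocampus they were 5.12, 5.21 and 5.04 in sham, 5.90 and 5.73 in non-transgenic GFP, 5.71, 6.14, 6.15 and 5.90 in transgenic GFP and 5.79, 6.04, 5.72 and 5.61 in transgenic BDNF. All 10 virus arrays of each region lay above its 3 sham arrays, and the hippocampal virus arrays were much closer together than the entorhinal ones.

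Cxcr3, the T cell receptor for Cxcl9, Cxcl10 and Cxcl11, read 5.16, 5.22 and 5.31 in entorhinal sham, 6.74 and 5.18 in non-transgenic GFP, 5.29, 5.18, 5.21 and 6.49 in transgenic GFP and 5.14, 5.02, 5.55 and 5.17 in transgenic BDNF. Its hippocampal values were 4.83, 5.15 and 5.25 in sham, 5.83 and 5.55 in non-transgenic GFP, 5.43, 5.65, 5.60 and 5.29 in transgenic GFP and 5.46, 5.36, 5.10 and 5.25 in transgenic BDNF. A single array in each entorhinal GFP group was high, and all 6 hippocampal GFP arrays lay above the sham arrays.

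Cxcr6, found on effector T cells, read 4.24, 3.80 and 4.54 in entorhinal sham, 5.93 and 4.42 in non-transgenic GFP, 4.03, 4.13, 4.68 and 6.08 in transgenic GFP and 5.04, 3.90, 4.60 and 5.07 in transgenic BDNF. Its hippocampal values were 4.14, 4.18 and 4.37 in sham, 6.10 and 5.10 in non-transgenic GFP, 4.90, 5.76, 4.93 and 4.15 in transgenic GFP and 4.74, 4.56, 4.36 and 4.36 in transgenic BDNF. Entorhinal transgenic GFP array 4 and hippocampal non-transgenic GFP array 1 were the highest of their region, as for Cxcl9, and hippocampal transgenic GFP array 4 lay at the sham level.

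**Figure D2:**
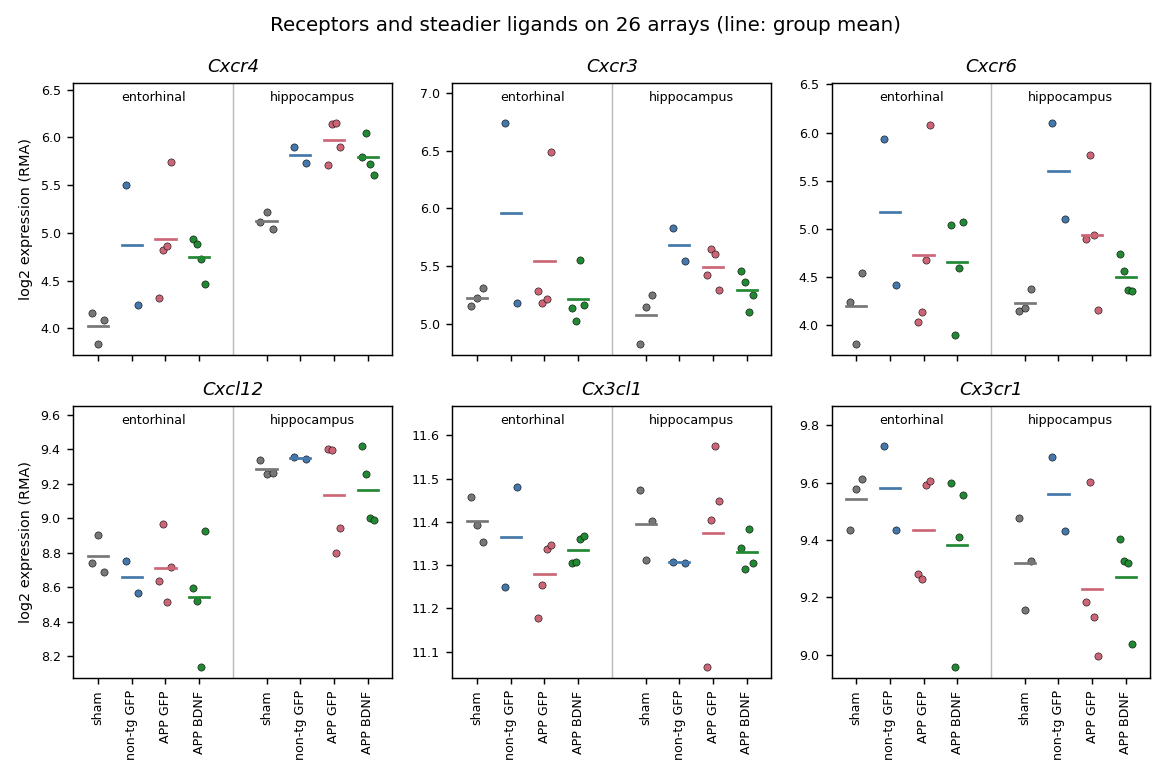
Log2 expression (y axis) of the receptors Cxcr4, Cxcr3, Cxcr6 and Cx3cr1 and of the ligands Cxcl12 and Cx3cl1 on each of 26 arrays, by region and group (x axis); points are arrays and lines are group means. Of the genes plotted, Cxcr4 has all virus arrays above sham in both regions, and Cxcl12 and Cxcr4 lie higher in the hippocampus.

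The virus groups were first set against sham, each of the 3 virus groups weighted equally. In the hippocampus Cxcr4 rose by 0.74 ± 0.11 (log2, SE), a fold of 1.67, with a Benjamini-Hochberg adjusted p of 0.0140 in limma, and it was higher on 10 of 10 virus arrays. It was the 1 gene called among the 32 tested. Of all 14941 genes, 0.0736% were called in this comparison and 0.0402% were called as higher, and of all genes 0.97% had every virus array above every sham array. At an adjusted p under 0.05 the call rests on the sham arrays: leaving out sham array 1 gave 0.74 with an adjusted p of 0.0757, and leaving out sham array 3 gave 0.70 with 0.193. It was also not called with all 26 arrays in 1 fit (0.74, adjusted p 0.251).

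The other genes highest in the hippocampal virus groups did not pass the adjusted threshold. The difference from sham was 1.80 ± 0.52 for Cxcl9 (limma adjusted p 0.298), 1.67 ± 0.50 for Ccl5 (0.307), 1.03 ± 0.28 for Ccl8 (0.289) and 0.41 ± 0.11 for Cxcr3 (0.288). Ccl28 differed by 1.19 ± 0.42, Cxcl10 by 0.91 ± 0.38, Cxcl11 by 0.88 ± 0.34, Cxcl13 by 0.84 ± 0.31, Cxcr6 by 0.78 ± 0.26 and Ccl6, a myeloid ligand, by 0.50 ± 0.16. The sham mean of Cxcr6 lies below the filter. At an unadjusted p under 0.05 in limma, 12 of the 32 genes (37.5%) differed, each higher with virus, where 10.1% of all genes differed and 4.61% were higher. Cxcr6, which passed the filter only through its virus groups, is among the 12. A log2 difference of at least 1 upwards was reached by 4 of the 32, against 0.274% of all genes. Ccl28, whose other probe sets did not show the difference, is among these 4 and among the 12. The median difference was 0.094 over the 32 genes, with 25 above 0, and -0.019 over all genes. Since 15 genes had been left out for low values, the 47 were also fitted without a filter, where 33 lay above 0 and 14 below, with a median of 0.042 against -0.020 over all genes. Without transgenic GFP array 4, the hippocampal array with low ligands, Cxcl9 was called together with Cxcr4. That array is singled out for low values of these same ligands, Cxcl9 among them. Its removal therefore favours a call, and this fit gives no support of its own.

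In the entorhinal cortex the differences from sham were as large and less certain. None of the 32 genes was called by limma, against 0.0535% of all genes, and 3 of them had an unadjusted p under 0.05 (9.38%, against 7.03% of all genes). These 3 were Cxcr4 with 0.83 ± 0.28 and a limma adjusted p of 0.683, Ccl6 with 0.59 ± 0.20 (0.683) and Cxcl9 with 2.06 ± 0.89 (0.687). The entorhinal sham mean of Cxcr4, 4.03, lies below the filter, so its difference starts from a level that was not tested against background. Cxcr4 and Cxcl9 were higher on all 10 virus arrays than on the 3 sham arrays, a separation upwards that 0.991% of all genes showed. Ccl5 differed by 1.81 ± 0.94, Ccl8 by 1.26 ± 0.81, Cxcl13 by 1.17 ± 0.71, Cxcl10 by 1.10 ± 0.69 and Cxcl11 by 1.07 ± 0.67, with arrays that overlapped those of sham for each of these 5. A log2 difference of at least 1 upwards was reached by 6 genes (18.8%), against 0.294% of all genes, and the median was 0.083 over the 32 genes and 0.012 over all genes. The difference in the virus effect between the regions was 0.09 ± 0.31 for Cxcr4 and 0.26 ± 1.10 for Cxcl9. The smallest p-values in that test were those of Ccl20, a ligand of Ccr6, with -0.19 ± 0.10 (limma adjusted p 0.871), Ccr2 with -0.13 ± 0.13 (0.946) and Ccr1 with 0.28 ± 0.28 (0.948). There limma called 0 of the 32 genes and 0% of all genes, and 0 of the 32 had an unadjusted p under 0.05, against 5.79% of all genes.

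**Figure D3:**
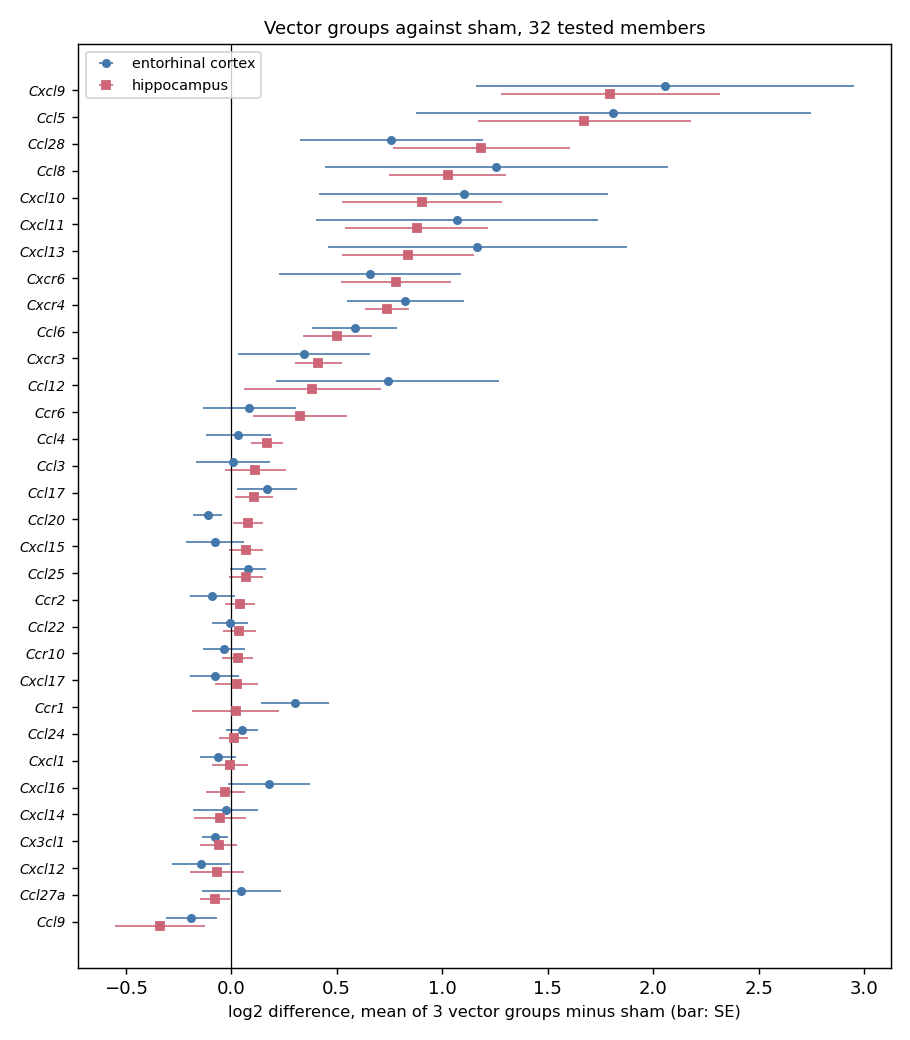
Log2 difference between the mean of the 3 virus groups and sham (x axis) for the 32 tested genes (y axis), in entorhinal cortex (circles) and hippocampus (squares); bars are moderated standard errors. Cxcl9 and Ccl5 lie farthest to the right with wide bars, whereas hippocampal Cxcr4 at 0.74 has a narrow one.

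The comparison within one genotype is GFP virus against sham in non-transgenic mice, with 2 arrays against 3. In the hippocampus limma called 0 of the 32 genes, against 0.0335% of all genes, while 11 (34.4%) had an unadjusted p under 0.05, each higher with virus, against 9% of all genes in either direction and 3.65% upwards. The differences were 0.70 ± 0.14 for Cxcr4 (limma adjusted p 0.23), 0.61 ± 0.15 for Cxcr3 (0.369) and 2.81 ± 0.71 for Cxcl9 (0.373). Ccl5 differed by 2.61 ± 0.69, Ccl28 by 2.04 ± 0.58, Cxcl11 by 1.74 ± 0.47, Ccl8 by 1.44 ± 0.38, Cxcl10 by 1.40 ± 0.52, Cxcl13 by 1.38 ± 0.43 and Cxcr6, one of the 11 and with a sham mean below the filter, by 1.37 ± 0.36. Both GFP arrays lay above all sham arrays for 17 of the 32 genes (53.1%), against 10.1% of all genes, and Cx3cl1 was the gene with both below, a pattern that 18.9% of all genes showed. Without transgenic GFP array 4, which enters through the shared estimate of spread, Cxcl9 was called (adjusted p 0.0160). The low Cxcl9 value of that array widens the spread, so this call gives no support of its own. Over all single arrays left out, the limma adjusted p of Cxcl9 ranged from 0.0160 to 0.637. With these 2 groups alone in the fit, Cxcl13 was called.

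In the entorhinal cortex the same comparison called 0 of the 32 genes in limma, against 0.0201% of all genes. Unadjusted p-values under 0.05 were found for 4 genes (12.5%, against 2.95% of all genes), Ccr1 with 0.69 ± 0.22, Ccl28 with 1.65 ± 0.59, Ccl6 with 0.65 ± 0.28 and Cxcr4, from a sham mean below the filter, with 0.85 ± 0.38. Ccr1, a receptor of Ccl3 and Ccl5 on myeloid cells, read 4.59, 4.48 and 4.43 in sham and 5.11 and 5.27 in non-transgenic GFP, a step on a gene close to the filter. The 2 GFP arrays differed strongly from each other, at 9.05 and 6.13 for Ccl5, and 7 of the 32 genes had both GFP arrays above sham (21.9%, against 9.39% of all genes).

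The BDNF virus was compared with the GFP virus in transgenic mice. In the hippocampus the group means of Cxcl9, Cxcl11, Cxcl13 and Ccl8 were lower with BDNF, and none of these differences passed the adjusted threshold. Limma called 0 of the 32 genes and 0% of all genes, and 5 of the 32 (15.6%) had an unadjusted p under 0.05, against 5.31% of all genes. The 4 lower ones (12.5%, against 3.47% of all genes) were Cxcl13 with -1.01 ± 0.33 (limma adjusted p 0.901), Ccl8 with -0.79 ± 0.29, Cxcl9 with -1.39 ± 0.55 and Cxcl11 with -0.91 ± 0.36. The 1 higher gene was Ccr2, the receptor of Ccl2 on monocytes, with 0.19 ± 0.07 (1.83% of all genes were higher at this level), and its other 3 probe sets gave -0.01, -0.01 and 0.00. Ccl5 differed by -0.90 ± 0.54, Cxcl10 by -0.75 ± 0.40 and Ccl12 by -0.65 ± 0.34. The second probe set of Cxcl13 gave -2.20 ± 0.77.

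The 2 hippocampal groups overlapped for each of these ligands, and transgenic GFP array 4 lay as low as the BDNF arrays in each. Without that array Cxcl13 differed by -1.39 (limma adjusted p 0.131) and Ccl8 by -1.04 (0.328), and without transgenic GFP array 1 Cxcl13 differed by -0.68 (0.684). The median difference was -0.091 over the 32 genes, with 23 below 0, and -0.011 over all genes. The GFP arrays of this comparison also enter the comparison of genotypes and that of virus with sham, so these do not give separate evidence.

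In the entorhinal cortex, where the virus was delivered, limma called 0 of the 32 genes and 0% of all genes between BDNF and GFP, and 1 gene (3.12%) had an unadjusted p under 0.05, against 3.88% of all genes. That gene was Ccl9, a myeloid attractant, with -0.30 ± 0.13, followed by Ccl4 with -0.33 ± 0.16 and Cxcl14 with 0.30 ± 0.16 (limma adjusted p 0.998 for each). Cxcl9 differed by -0.68 ± 0.95, Ccl8 by -0.91 ± 0.86 and Cxcl13 by -0.46 ± 0.75, and the arrays of the 2 groups overlapped for each of these 3. The highest BDNF array lay below the highest GFP array for each, at 7.53 against 9.27 for Cxcl9, 7.62 against 10.14 for Ccl8 and 7.53 against 9.18 for Cxcl13. The median was -0.17 over the 32 genes, with 24 below 0, and 0.01 over all genes. The difference between the regions in the BDNF effect was 0.71 ± 1.17 for Cxcl9 and -0.12 ± 0.96 for Ccl8. The smallest p-values were those of Cxcl14 with 0.45 ± 0.22, Ccr2 with -0.25 ± 0.14 and Ccl4 with -0.32 ± 0.19 (limma adjusted p 0.996 for each). Limma called 0 of the 32 genes in that test, with 0 at an unadjusted p under 0.05, against 0% of all genes called and 4.03% at an unadjusted p under 0.05.

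**Figure D4:**
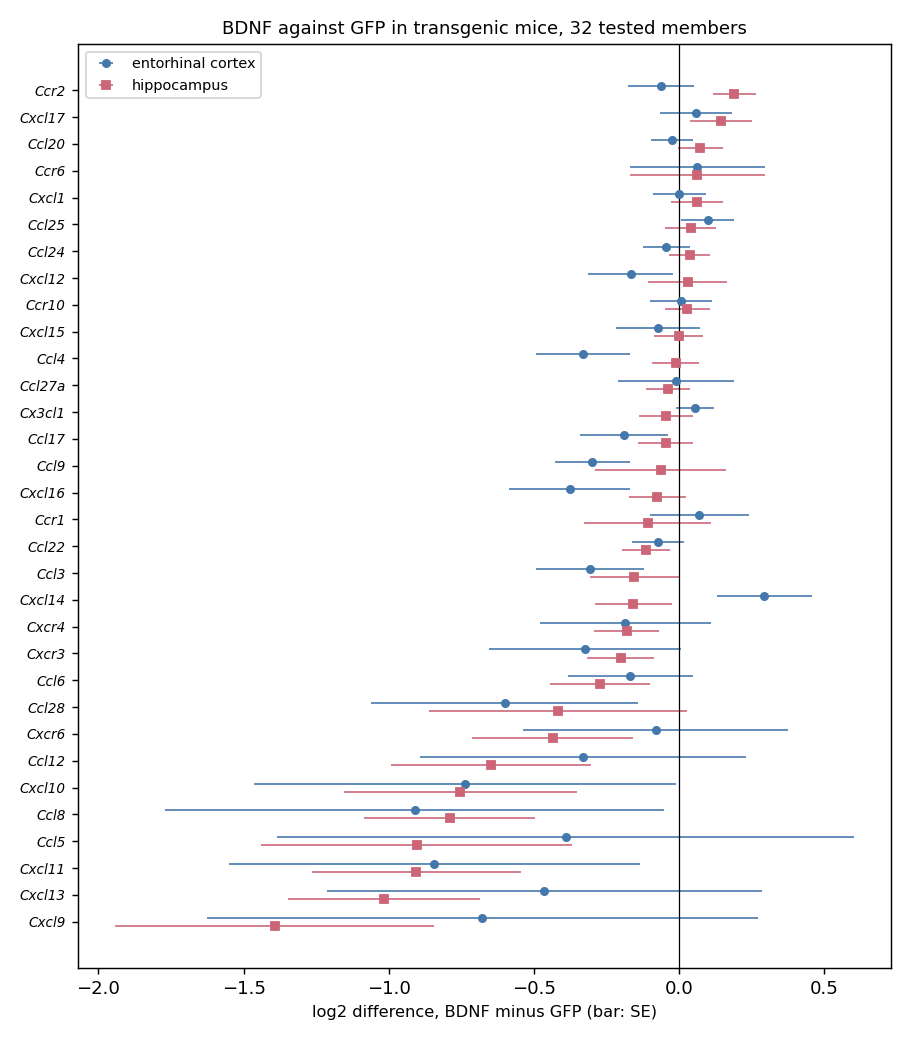
Log2 difference between BDNF and GFP virus in transgenic mice (x axis) for the 32 tested genes (y axis), in entorhinal cortex (circles) and hippocampus (squares); bars are moderated standard errors. Cxcl9, Cxcl13 and Cxcl11 lie left of 0 in both regions, and no gene passed the adjusted threshold.

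The genotype was compared with the GFP virus held the same, 4 transgenic against 2 non-transgenic arrays. In each region Xist was high on both non-transgenic arrays and on 2 of the 4 transgenic ones, so the contrast is not of genotype alone. Limma called 0 of the 32 genes in the entorhinal cortex (0.0134% of all genes) and 0 in the hippocampus (0.00669% of all genes), and 1 and 0 of the 32 had an unadjusted p under 0.05, against 2.5% and 4.41% of all genes. The gene in the entorhinal cortex was Ccr1 with -0.62 ± 0.21, and Ccr6, a receptor of lymphocytes and dendritic cells, had the third smallest p there with -0.39 ± 0.29. Ccl28 differed between transgenic and non-transgenic mice by -1.03 ± 0.56 in the entorhinal cortex and -1.07 ± 0.55 in the hippocampus, each time with every transgenic array below both non-transgenic arrays. Ccr10 showed the same separation in the entorhinal cortex, with means of 5.16 in transgenic and 5.32 in non-transgenic GFP. In the entorhinal cortex 2 of the 32 genes (6.25%) thus lay lower without overlap, against 4.04% of all genes. In the hippocampus 1 did (3.12%), against 2.07% of all genes. These shares are near those of all genes, and only 2 non-transgenic arrays enter. Cxcr6 differed by -0.66 ± 0.34 and Cxcl11 by -0.84 ± 0.44 in the hippocampus (limma adjusted p 0.988). With the chemokines as a whole, the median was -0.076 in the entorhinal cortex and -0.086 in the hippocampus, against 0.014 and 0.033 over all genes.

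Taking the 4 groups of a region at once, limma's F test called 0 of the 32 genes in the entorhinal cortex (0.0402% of all genes), with 2 of them, Ccr1 and Ccl9, at an unadjusted p under 0.05 (6.25%, against 6.09% of all genes). The smallest limma adjusted p there was 0.809, shared by Ccr1, Ccl9 and Ccl28. In the hippocampus it called 0 of the 32 (0.0736% of all genes), with 11 at an unadjusted p under 0.05 (34.4%, against 7.29% of all genes). The smallest limma adjusted p was that of Cxcr4, 0.0728, followed by Ccl8 with 0.462 and Cxcl9 with 0.474.

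The regions themselves differed for 5 of the 32 genes (15.6%), fewer than the 51.8% of all genes that limma called between entorhinal cortex and hippocampus. Cxcr4 was lower in the entorhinal cortex, with a lowest, median and highest value of 3.84, 4.73 and 5.75 over its 13 arrays against 5.04, 5.73 and 6.15 in the hippocampus, a difference of -1.03 ± 0.14 (limma adjusted p 1.3e-06). Its ligand Cxcl12 was also lower, at 8.14, 8.69 and 8.97 against 8.80, 9.26 and 9.42, a difference of -0.56 ± 0.09 (9.24e-06). Ccl22, a ligand of Ccr4, was lower at 4.88, 5.05 and 5.28 against 5.07, 5.27 and 5.44, a difference of -0.17 ± 0.05 (0.00551). The other 2 ligands were higher in the entorhinal cortex. Ccl27a, a ligand of Ccr10, lay at 8.43, 8.84 and 9.52 against 8.38, 8.51 and 8.71, a difference of 0.31 ± 0.09 (0.00592). Cxcl14, a ligand made by epithelia and neurons, lay at 8.45, 8.78 and 9.33 against 8.02, 8.52 and 8.78, a difference of 0.23 ± 0.09 (0.0316). The ranges of the regions overlapped for all 5. The call of Cxcl14 ended without entorhinal transgenic GFP array 3, entorhinal non-transgenic GFP array 1, entorhinal sham array 1 or 2, hippocampal non-transgenic GFP array 2 or hippocampal sham array 2, where it differed by 0.20 to 0.22 with adjusted p-values of 0.0502 to 0.0988. Downwards calls made up 31.3% of all genes and upwards calls 20.6%. Between the same regions, 9 of 9 tested oligodendrocyte markers (of 10 listed) were called lower in the entorhinal cortex, with a median difference of -1.46, and 11 of 12 tested markers of meninges and perivascular fibroblasts were called higher, with a median of 0.94. Their part in the regional differences of the chemokine genes was not tested.

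Other probe sets of these genes did not always give the same direction. Those of Cxcl12 gave 0.19 ± 0.07 and -0.07 ± 0.05, and that of Cxcl14 gave -0.33 ± 0.08, opposite to the probe set used. Cx3cl1 differed by -0.01 ± 0.05 with the probe set used and by -0.50 ± 0.10, 0.36 ± 0.07 and -0.00 with the others. Ackr3, the second receptor of Cxcl12, which removes the ligand, was lower in the entorhinal cortex as well, with a difference of -1.02 ± 0.06 (limma adjusted p 1.46e-11).

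The genes around the chemokines were taken from 2 lists. Of 31 other genes of chemokine signalling, 30 had a probe set and 27 were tested; limma called 13 between the regions, 9 higher and 4 lower in the entorhinal cortex, where 51.8% of all genes were called. It called 0 in the other comparisons, where 0 to 7 of the 27 had an unadjusted p under 0.05, against 2.5% to 10.1% of all genes. The count of 7 belongs to hippocampal virus groups against sham, where 10.1% of all genes differed. Hippocampal non-transgenic GFP against sham had 5, where 9% of all genes differed. The genes called between the regions included Elmo1, which links receptors to Rac, with 0.85 ± 0.04 (entorhinal cortex minus hippocampus). Also called there were Ptk2b, a kinase downstream of the receptors, with -1.12 ± 0.09, and Pf4 (Cxcl4), a platelet chemokine, with 0.66 ± 0.08. In the hippocampus Rac2, a Rac of leukocytes, differed by 0.81 ± 0.25 between non-transgenic GFP and sham (limma adjusted p 0.437) and Dock2, its activator in leukocytes, by 0.50 ± 0.14 (0.428). Of 30 genes that induce chemokines or restrain their induction, 28 had a probe set and 25 were tested. Between the regions limma called 7 of these, 2 higher and 5 lower in the entorhinal cortex, against the same 51.8% of all genes. These included Relb, an NF-kappa-B subunit, with -0.60 ± 0.09, the interferon receptor chains Ifngr2 with 0.46 ± 0.12 and Ifnar1 with 0.27 ± 0.05, and the toll-like receptor adaptor Myd88 with -0.24 ± 0.06. In the other comparisons 0 were called, with 0 to 5 of the 25 at an unadjusted p under 0.05, against the same 2.5% to 10.1% of all genes. The count of 5 belongs to hippocampal BDNF against GFP, where 5.31% of all genes differed. Irf1, a transcription factor of the interferon response, differed by 0.67 ± 0.24 between hippocampal non-transgenic GFP and sham, and Irf3, the factor that starts interferon production, by -0.29 ± 0.08 (limma adjusted p 0.494 and 0.418). Il6, Ifng and Il4 had means over all arrays below the filter, and their levels were not examined by group.

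In the other comparisons the genes of both lists with the smallest p-values were the following, none of which passed the adjusted threshold in limma. Between BDNF and GFP virus in the entorhinal cortex, Vav1, a Rac activator of leukocytes, differed by -0.25 ± 0.11, Rgs2, a brake on G protein signalling, by -0.21 ± 0.11, the NF-kappa-B subunit Nfkb2 by -0.23 ± 0.10 and the interferon-gamma receptor chain Ifngr1 by 0.15 ± 0.07. In the hippocampus the same contrast gave -0.26 ± 0.11 for Dock2, 0.17 ± 0.10 for the receptor kinase Grk3, 0.27 ± 0.08 for the cytokine Il17a and -0.31 ± 0.10 for Tnfaip3, an inhibitor of NF-kappa-B. The limma adjusted p was 0.998 for each of the former and 0.901 to 0.917 for the latter.

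Between transgenic and non-transgenic GFP, entorhinal differences were 0.23 ± 0.12 for Ackr3, -0.13 ± 0.09 for Elmo1, -0.21 ± 0.08 for Ifngr1 and -0.22 ± 0.11 for the NF-kappa-B inhibitor Nfkbia. Hippocampal ones were 0.25 ± 0.10 for Ackr2, a scavenger of CC ligands, 0.22 ± 0.10 for the receptor kinase Grk6, 0.21 ± 0.12 for Tnfaip3 and -0.38 ± 0.23 for Irf1, which turned to 0.11 without non-transgenic GFP array 1. Between entorhinal non-transgenic GFP and sham, Ackr3 differed by -0.33 ± 0.13, Dock2 by 0.66 ± 0.33, Nfkbia by 0.21 ± 0.11 and Tnfaip3 by 0.30 ± 0.16. The sign of Ackr3 was thus opposite in these 2 entorhinal contrasts, which share the non-transgenic GFP arrays.

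Between the 3 virus groups and sham, Pf4 differed by -0.33 ± 0.16 in the entorhinal cortex and -0.31 ± 0.11 in the hippocampus, with limma adjusted p-values of 0.708 and 0.354. The other entorhinal genes were Elmo1 with 0.12 ± 0.07, Il17a with -0.17 ± 0.08 and the RNA sensor Tlr3 with 0.15 ± 0.08. The other hippocampal ones were Rac2 with 0.50 ± 0.18, Irf3 with -0.26 ± 0.06 and Stat2, which carries the interferon signal to the nucleus, with 0.31 ± 0.13. Of these, Irf3 had the smallest limma adjusted p, 0.188.

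In the regional difference of the virus effect the genes were Irf3 with 0.36 ± 0.10 (limma adjusted p 0.662), Il17a with -0.20 ± 0.11, the protease Adam10, which sheds Cx3cl1 and Cxcl16, with -0.19 ± 0.09, and Rgs2 with -0.26 ± 0.13. In that of the BDNF effect they were Il17a with -0.34 ± 0.12, Irf3 with 0.23 ± 0.11, the arrestin Arrb1 with 0.16 ± 0.08 and Vav1 with -0.23 ± 0.15, which turned to 0.11 with the mean of its probe sets. The F test over 4 groups gave adjusted p-values in limma of 0.808 for Irf3, 0.823 for Ifngr1 and Arrb1 and 0.838 for Vav1 in the entorhinal cortex. Its hippocampal values were 0.479 for Irf3, 0.540 for Dock2, 0.664 for Il17a and 0.675 for Rac2.

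None of the remaining tested genes passed the adjusted threshold between virus and sham in limma. Ccl3 and Ccl4, ligands of activated microglia and macrophages, differed by 0.01 ± 0.18 and 0.03 ± 0.15 in the entorhinal cortex and by 0.11 ± 0.14 and 0.17 ± 0.08 in the hippocampus. Hippocampal differences were 0.11 ± 0.09 for Ccl17, 0.08 ± 0.07 for Ccl20, 0.01 ± 0.07 for Ccl24, 0.07 ± 0.08 for Ccl25, -0.34 ± 0.21 for Ccl9, -0.01 ± 0.09 for Cxcl1, 0.07 ± 0.08 for Cxcl15 and 0.03 ± 0.10 for Cxcl17. Of the receptors, Ccr6 differed by 0.33 ± 0.22 and Ccr10 by 0.03 ± 0.07.

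Markers of leukocytes were also uneven over the virus arrays. The mean of 9 measured B and plasma cell markers, of 12 listed, lay between 5.01 and 5.12 on the entorhinal sham arrays and reached 8.04 in transgenic GFP and 8.16 in non-transgenic GFP. In the hippocampus it lay between 4.97 and 5.16 in sham, 4.98 and 5.69 in BDNF, 5.22 and 7.47 in transgenic GFP, and 6.92 and 7.31 in non-transgenic GFP. The highest single values did not always fall on the array with the highest mean of the 7 ligands. Entorhinal non-transgenic GFP array 1 had the top marker mean, 8.16, with a ligand mean of 8.09, and transgenic GFP array 4 had 8.04 with 9.15. In the hippocampus transgenic GFP array 2 had the top marker mean, 7.47, with a ligand mean of 6.86, and non-transgenic GFP array 1 had 7.31 with the top ligand mean of that region. Entorhinal BDNF array 1 had a ligand mean of 7.30 with a marker mean of 5.72, which is lower than the 5.90 of transgenic GFP array 1, whose ligand mean was 6.08. Cd79b and Pou2af1 had means over all arrays below the filter, and their levels were not examined by group.

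The mean of 12 measured T cell markers, of 15 listed, lay between 4.87 and 4.97 in entorhinal sham and reached 5.61 in transgenic GFP and 5.60 in non-transgenic GFP. Hippocampal values were 4.85 to 4.97 in sham and reached 5.39 in non-transgenic GFP, with Cd3g, Cd8b1, Cd2 and Cd5 below the filter. Microglial markers (14 of 15 measured) lay between 8.28 and 8.39 in entorhinal sham and between 7.95 and 8.81 over the entorhinal virus arrays. Monocyte, macrophage and dendritic cell markers (10 of 11 measured) lay between 5.55 and 5.97 in entorhinal sham and reached 6.53 in transgenic GFP. The same entorhinal arrays were again the highest of the region, with 6.53, 6.46 and 6.28. Hippocampal non-transgenic GFP array 1 was highest there with 6.18, then transgenic GFP arrays 2 and 3 with 5.985 and 5.97. Hippocampal transgenic GFP array 1 had 5.85, and the hippocampal sham arrays lay between 5.52 and 5.59. Neutrophil markers (8 of 9 measured) lay between 4.49 and 4.74 on every array, with S100a8, S100a9 and Mmp8 below the filter. Single markers did not all move with the list means. Between virus groups and sham, 5 of 8 tested T cell markers lay above 0 in the entorhinal cortex and 6 in the hippocampus. Of 10 monocyte, macrophage and dendritic cell markers, 5 and 6 lay above 0, with medians of 0.003 and 0.12. All 7 tested B and plasma cell markers lay above 0 in both regions. In dissected tissue fewer cells of a type and less RNA per cell cannot be told apart, and the part of any of these cell types in the chemokine differences was not tested. The part of the oligodendrocyte, choroid plexus and Xist differences between arrays was not tested beyond the fit with Xist as a covariate, in which Cxcr4 differed by 0.76 between hippocampal virus groups and sham (limma adjusted p 0.0340).

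**Figure D5:**
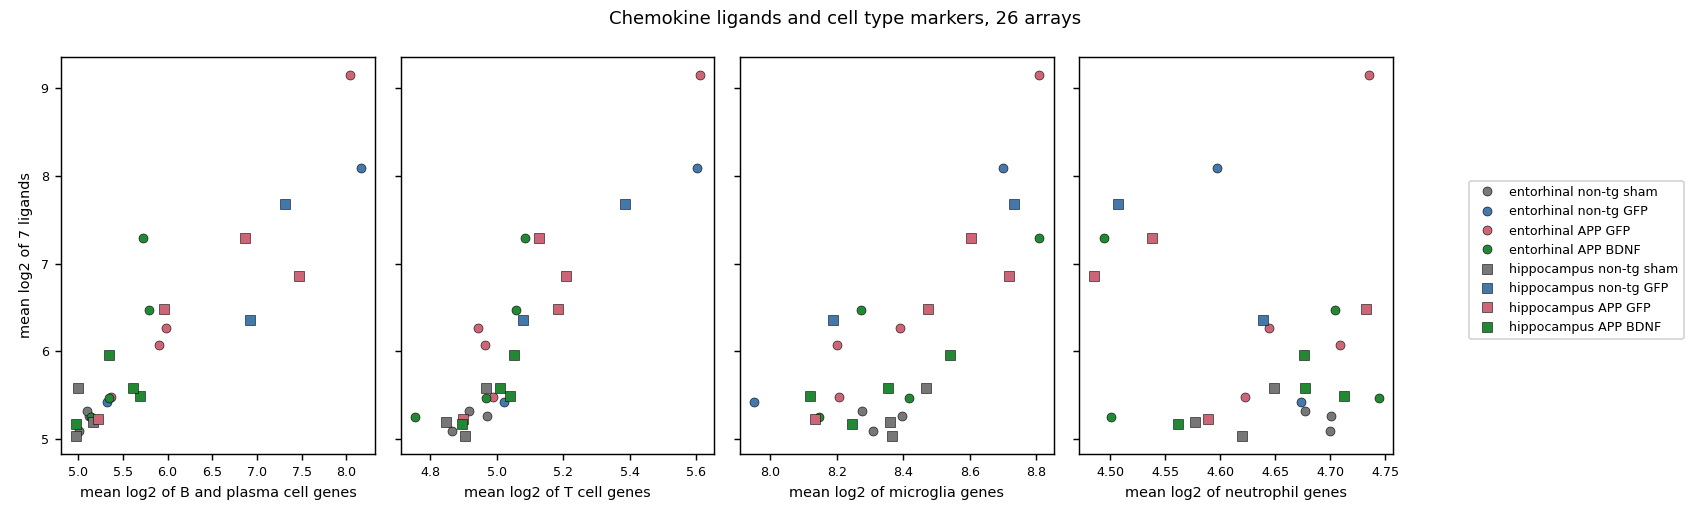
Mean log2 expression of 7 chemokine ligands (y axis) against the mean of B and plasma cell, T cell, microglial and neutrophil markers (x axis, one panel each) on 26 arrays; each point is an array, coloured by group, with circles for entorhinal cortex and squares for hippocampus. The array with the highest ligand mean, 9.15, also has a B and plasma cell mean of 8.04, and the neutrophil means stay between 4.49 and 4.74.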

How the data were processed

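Total RNA of dissected entorhinal cortex and hippocampus was measured on 26 Affymetrix arrays. The authors deposited log2 values for 45101 probe sets, made with RMA per the submitters' processing notes (background correction, quantile normalization and probe summary). RMA gives the arrays a common distribution, so a shift shared by most genes would not show, and it compresses differences of dim probe sets. No RMA version was given in the sources used here, nor was a genome build. The number of arrays limits the precision.

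The members, lists and tests were chosen with earlier results of these data known. Of the probe sets, 34958 had a single symbol. Genes with a mean below the 30th percentile (4.33) were left out, leaving 14941. Groups came from the labels. Linear models used lmFit and eBayes of limma 3.58.1 under R 4.3.3, the 13 arrays and 4 groups of a region in 1 fit, and all 26 arrays where regions were compared. Tests were 2-sided and p-values were adjusted by Benjamini-Hochberg over all genes tested, with 0.05 as the threshold. Errors of differences are moderated standard errors. The fit was tested on simulated data. Values of every array were given for the 12 members with the largest range and for Cx3cl1, Cxcl12 (hippocampal BDNF arrays as a range), Ccl2 and Cx3cr1. In each comparison the called members, and where fewer than 3 were called those with the smallest p up to 3, were named, with the called genes of each list (the 4 of largest difference) or the 2 with the smallest p. Further members, and the choice of list genes shown among these, were named after their values were seen.

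Each result was recomputed with all genes kept, with a 50th percentile filter, with every probe set or with their mean per gene, after median centring or a new quantile normalization, with array weights, with trend and robust settings of eBayes, with all 26 arrays fitted together, with the compared groups alone, with Xist as a covariate, with the replicate number as a block, and without each array. The other probe sets of named genes were added after seeing the data.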

Additional observations from a re-analysis of the deposited data

Results flagged for a closer look

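In groups of 4 arrays, a single array was marked where its gap to the nearest other array took up more of the group's range than Dixon's 95% limit allows. Among the 64 combinations of gene and group checked, 5 were marked. The limit's rate of 1 in 20, or 3.2 of the 64, is no measure of chance here. Of the genes checked, 12 were picked for their range on these same arrays, and the same arrays were high for most of them. Entorhinal transgenic GFP array 4 stood above its group for Cxcl11 at 9.13 (the others 5.84 to 6.30), for Cxcl13 at 9.18 (5.88 to 6.42) and for Cxcr3 at 6.49 (5.18 to 5.29). Hippocampal transgenic GFP array 4 stood below its group for Cxcl10 at 5.24 (6.66 to 6.94). Hippocampal BDNF array 3 stood below its group for Cxcl11 at 5.58 (5.94 to 5.98), just below the lowest sham array at 5.63.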

How the results depend on the processing

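The 83 differences and 13 counts were recomputed under each alternative. Of the differences, 2315 recomputed values kept their direction and side of the threshold, 11 lost the call, 1 gained it and 3 changed sign. Of the counts of members called, 340 stayed within 1.5 times and 14 did not. Between hippocampal virus groups and sham, the 1 member called (Cxcr4) became 0 with the 50th percentile filter, which leaves Cxcr4 out, and 0 with all 26 arrays in 1 fit; leaving out single arrays gave 0 to 2. Between hippocampal non-transgenic GFP and sham, 0 became 1 with only these groups, and 0 to 1 without single arrays. The hippocampal F test gave 1 after median centring, 1 with array weights and 0 to 2 without single arrays. Between the regions, 5 became 9 without a filter, 3 with the 50th percentile filter and 9 with every probe set. The cause of changes other than the filter was not tested.

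Signs changed for Irf1 between hippocampal transgenic and non-transgenic GFP (-0.38, 0.11 without non-transgenic GFP array 1, and -0.87 to 0.11 over the arrays left out), for Cxcl14 between the regions (0.23, and -0.048 with the mean of probe sets) and for Vav1 in the regional difference of the BDNF effect (-0.23, and 0.11 with the mean of probe sets). The replicate numbers were also used as a block. Same-numbered arrays deviated from their groups with correlations of -0.248 to 0.395 in the entorhinal cortex and -0.251 to 0.165 in the hippocampus, and across the regions with -0.487 to 0.479 (median -0.162), so the numbers were not taken as a pairing. With the replicate block Cxcr4 differed by 0.76 between hippocampal virus groups and sham (limma adjusted p 0.0447), and the counts stayed at 1 there, 5 between the regions and 0 elsewhere. Over all genes, calls between hippocampal virus groups and sham numbered 11, and 72 with array weights. With 2 non-transgenic GFP and 3 sham arrays, differences of the size of the spread among entorhinal virus arrays could not be told from it.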
